A study of Mus musculus with 12 samples.

Results

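The 10 genes described here release fatty acids from the stored fat of an adipocyte or take them up from circulating lipoproteins. They were chosen by name as Pnpla2, Lipe, Mgll, Abhd5, G0s2, Pde3b, Aqp7, Lpl, Gpihbp1 and Angptl4, and each was found once among the 47729 genes of the files. All 10 were among the 19154 genes with enough reads to be tested. The data are RNA-seq libraries of surgically denervated fat from male wild type C57BL/6J mice, 6 to 10 weeks old, kept on a standard low-fat rodent diet. Genotype, sex, diet and denervation were shared by all 12 libraries, so depot was the only factor compared. Innervated fat was not analysed here, and no value below measures an effect of denervation. Brown fat came from the interscapular pad (BAT), and white fat from the epididymal (EWAT), inguinal (IWAT) and retroperitoneal (RWAT) pads, with 3 libraries per depot. Nothing in the labels states whether libraries of one depot are from different mice, so p-values reflect only the spread among these samples, part of which may be technical.

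In lipolysis, fatty acids are cleaved from triglyceride one after another. Adipose triglyceride lipase (Pnpla2) removes the first, hormone-sensitive lipase (Lipe) acts on the resulting diglyceride, and monoglyceride lipase (Mgll) releases the last fatty acid and glycerol. Sympathetic nerves start this sequence in fat through beta-adrenergic receptors, cyclic AMP and protein kinase A, and insulin slows it. Uptake runs the other way: lipoprotein lipase (Lpl), made in adipocytes, is carried by Gpihbp1 to the capillary wall, where it cleaves the triglyceride of lipoproteins, and Angptl4 inactivates it.

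Each gene was located in the GENCODE M21 annotation of mouse build GRCm38. Pnpla2 (ENSMUSG00000025509) lies on the plus strand at chr7:141455198-141460743 and Lipe (ENSMUSG00000003123) on the minus strand at chr7:25379527-25398710. Mgll is at chr6:88724412-88828360, Abhd5 at chr9:122351608-122381524, G0s2 at chr1:193272161-193273217 and Pde3b at chr7:114415281-114539251. Aqp7 is at chr4:41033074-41048139, Lpl at chr8:68880491-68907448, Gpihbp1 at chr15:75596628-75599481 and Angptl4 at chr17:33773750-33781830. The RefSeq promoter table (GRCm38.p6) held 6 of the 10 genes, with 9 start sites. The 250 bases before a start site are printed 5′ to 3′ on the gene's strand for the first 2 lipases, for the activator Abhd5 and for the glycerol channel Aqp7. Levels of these genes followed each other across libraries, but so did those of Mgll and G0s2, whose windows are not printed. Capitals mark the letters AGGTCA (the half-site that PPAR receptors bind, a family known to drive adipocyte genes), CACGTG (an E-box) and GGGCGG (a GC box), each searched on both strands, so that TGACCT and CCGCCC are marked too.
Pnpla2, chr7:141454938-141455187, plus strand: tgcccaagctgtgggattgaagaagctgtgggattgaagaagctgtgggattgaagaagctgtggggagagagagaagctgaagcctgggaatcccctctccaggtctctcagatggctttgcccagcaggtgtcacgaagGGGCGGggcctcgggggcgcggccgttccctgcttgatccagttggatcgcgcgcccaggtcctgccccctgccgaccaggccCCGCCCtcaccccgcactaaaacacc
Lipe, chr7:25395988-25396237, minus strand: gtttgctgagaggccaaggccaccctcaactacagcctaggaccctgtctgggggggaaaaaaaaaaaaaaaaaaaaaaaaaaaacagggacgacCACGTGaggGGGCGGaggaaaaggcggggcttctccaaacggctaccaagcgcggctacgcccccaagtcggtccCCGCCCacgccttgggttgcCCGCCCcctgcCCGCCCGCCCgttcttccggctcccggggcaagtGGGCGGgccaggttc
Abhd5, chr9:122351366-122351615, plus strand: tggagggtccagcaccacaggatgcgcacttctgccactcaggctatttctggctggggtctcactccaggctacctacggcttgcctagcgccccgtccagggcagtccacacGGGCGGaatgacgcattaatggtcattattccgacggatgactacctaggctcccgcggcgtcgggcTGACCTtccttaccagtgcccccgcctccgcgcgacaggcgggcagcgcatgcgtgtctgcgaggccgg
Aqp7, chr4:41048137-41048386, minus strand: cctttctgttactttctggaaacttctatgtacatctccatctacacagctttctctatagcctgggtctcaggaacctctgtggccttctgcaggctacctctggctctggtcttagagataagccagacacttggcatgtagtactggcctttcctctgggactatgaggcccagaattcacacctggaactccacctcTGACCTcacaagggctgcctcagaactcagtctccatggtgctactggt

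The Pnpla2 window held 2 GC boxes and no other searched motif. The Lipe window held 1 E-box and 6 GC boxes, 2 of which overlap in the run CCGCCCGCCC, while the window before a second Lipe start site at chr7:25390113-25390362 held none of the 3 motifs. The Abhd5 window held 1 half-site and 1 GC box, and the Aqp7 window held 1 half-site. A second Aqp7 window at chr4:41047963-41048212, which overlaps the printed one, held 2 half-sites. Neither Mgll nor G0s2 had a half-site: 1 Mgll window held 1 E-box, the other 1 GC box, and the G0s2 window 1 GC box. Among 32851 windows of the same length in the table, 14.0% held AGGTCA, 6.02% CACGTG and 32.7% GGGCGG. These are matches of letters in a window, and binding was not measured.

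Total estimated counts ran from 15699912 to 25633413 per library. Markers of the labelled tissue were compared first. The library labelled BAT replicate 2 stood apart: Ucp1, the uncoupling protein of brown fat, was at 21.7 TPM (a level corrected for gene length and library size), against 1191 and 563 TPM in BAT replicates 1 and 3. It was at 23.0 to 93.6 TPM in the IWAT libraries, 0.160 to 10.3 TPM in RWAT and at most 0.0800 TPM in EWAT. All 8 brown adipocyte markers were detected in each BAT library, with a summed level of 2432, 168 and 1154 TPM, and edgeR called 4 of the 8 higher in BAT than in the white depots. In EWAT up to 3 of the 8 were at 0. Skeletal muscle markers, 11 in all, summed to 6306, 7212 and 1565 TPM in BAT and to 9803 TPM in RWAT replicate 3, against 3.89 to 28.7 TPM in the other 8 libraries. The 11 adipocyte markers were detected in every library and summed to between 4757 TPM (RWAT replicate 3) and 31042 TPM (IWAT replicate 2). In bulk tissue, fewer adipocytes and less RNA per adipocyte cannot be told apart.

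All 10 genes were detected in every library, with 255 to 198042 estimated counts, and the authors' posterior standard deviation of a count was at most 1.91% of it. Lpl had the highest median level (1388 TPM, with 50 of the genes tested above it), followed by Pnpla2 at 658 TPM and Lipe at 374 TPM. Mgll (172 TPM), Angptl4 (167 TPM), G0s2 (152 TPM) and Abhd5 (123 TPM) were intermediate, and Gpihbp1 (85.1 TPM), Pde3b (60.7 TPM) and Aqp7 (55.4 TPM) were lowest. By mean TPM, EWAT was the lowest depot for every gene except Angptl4, for which BAT was lowest. IWAT was the highest depot for Lipe, Mgll, Abhd5, Pde3b, Aqp7 and Lpl, BAT for Pnpla2 and G0s2, and RWAT for Gpihbp1 and Angptl4. None of these orders was a called difference. The spread within IWAT and RWAT was wide for the 8 genes other than Gpihbp1 and Angptl4. It was also wide for Gpihbp1 in RWAT (129.9 ± 79.8 TPM) and for Lpl in BAT (1814 ± 822 TPM, SD, n = 3 each).

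**Figure D1:**
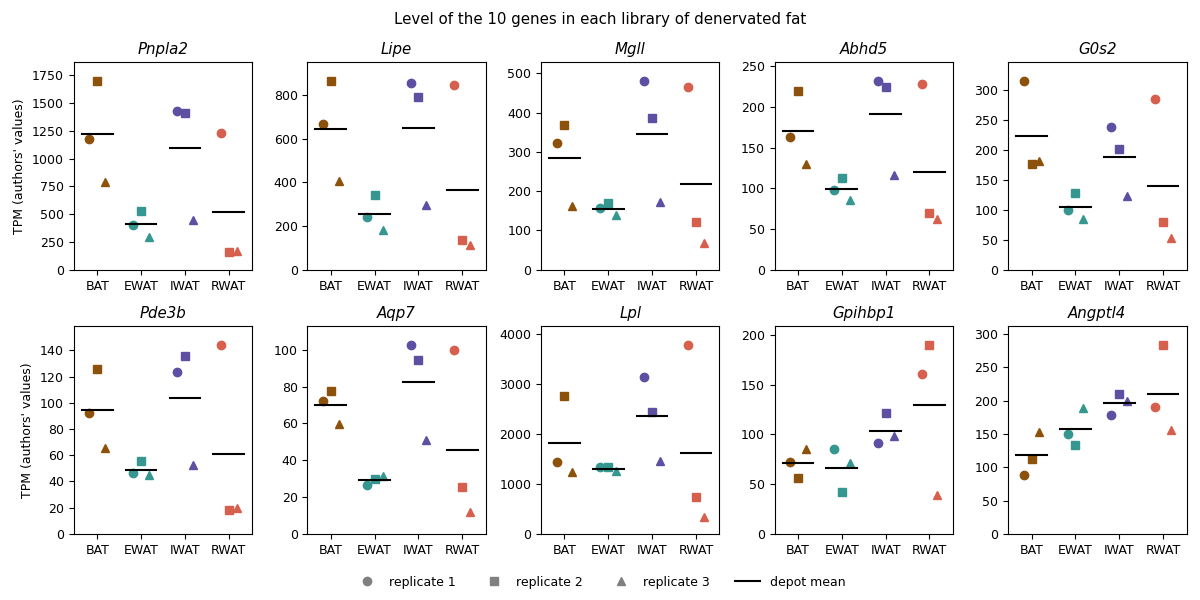
Level of each gene in TPM (vertical axes start at 0) in the 12 libraries, by depot; each point is 1 library, its shape the replicate number, and the bar the depot mean. In 8 of the 10 panels RWAT replicate 1 lies far above RWAT replicates 2 and 3, as for Lpl at 3772 against 731 and 333 TPM, whereas Gpihbp1 and Angptl4 are highest in RWAT replicate 2.

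Pnpla2, the triglyceride lipase, stood at 1177, 1697 and 786 TPM in BAT replicates 1 to 3, at 400.2, 530.4 and 299 TPM in EWAT, at 1426, 1409.5 and 445 TPM in IWAT and at 1227, 164 and 169.7 TPM in RWAT. Every BAT library was above every EWAT library, but BAT overlapped IWAT and RWAT. The means were 1219.9 ± 457 TPM in BAT, 409.9 ± 116 TPM in EWAT, 1093 ± 561 TPM in IWAT and 520.1 ± 612 TPM in RWAT (SD, n = 3 each). On the scale of the fit, in which counts are divided by library size times a TMM factor, Pnpla2 was 1.53 log2 units higher in BAT than in the mean of the white depots (SE 0.67, 95% interval 0.06 to 3.00). Against EWAT alone the difference was 2.29 (SE 0.92). Neither passed the threshold of 0.05, with adjusted p = 0.262 and 0.145 by edgeR's quasi-likelihood test with Benjamini-Hochberg adjustment over all genes.

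Lipe, the diglyceride lipase, was at 668, 864 and 408 TPM in BAT, 244, 340.2 and 182 TPM in EWAT, 856, 789 and 298 TPM in IWAT and 847, 134 and 111 TPM in RWAT. As for Pnpla2, replicate 3 was the lowest library in BAT, EWAT and IWAT, and RWAT replicates 2 and 3 were the lowest of all 12. Mgll, the last enzyme of the sequence, was at 324, 368 and 163 TPM in BAT, 157, 170.1 and 139 TPM in EWAT, 479.7, 386 and 173 TPM in IWAT and 466, 121 and 67.7 TPM in RWAT. For Mgll, BAT replicate 3 fell inside the EWAT range on the TPM scale, while on TMM-scaled CPM (counts corrected for library size and the TMM factor, not for length) BAT lay above EWAT. The fitted difference between BAT and the white mean was 1.26 log2 units for Lipe (SE 0.67, adjusted p = 0.323) and 0.88 for Mgll (SE 0.63, adjusted p = 0.426, both edgeR). For Mgll it was 0.43 without BAT replicate 1 and 1.37 without RWAT replicate 1.

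Abhd5, the protein that activates Pnpla2 when perilipin lets it go, was at 163, 219.8 and 130.2 TPM in BAT, 97.9, 112 and 85.9 TPM in EWAT, 232, 225 and 116 TPM in IWAT and 228, 70.1 and 62.9 TPM in RWAT. It varied 3.68-fold between the highest and lowest library, against 10.4-fold for Pnpla2. G0s2, a small protein that inhibits Pnpla2, was at 314, 175 and 181 TPM in BAT, 99.0, 128 and 84.1 TPM in EWAT, 238, 202 and 123 TPM in IWAT and 284, 79.8 and 52.6 TPM in RWAT. BAT libraries were above EWAT libraries for both the activator and the inhibitor. The fitted difference of BAT from the white mean was 0.89 log2 units for Abhd5 (SE 0.49, adjusted p = 0.338) and 1.33 for G0s2 (SE 0.56, adjusted p = 0.255, both edgeR), and the latter was the lowest adjusted p of the 10 genes in that comparison. That value moved most with 1 library: without BAT replicate 1 the difference of G0s2 was 0.54 (adjusted p = 0.890). The libraries of highest G0s2 and highest Pnpla2 were not the same: BAT replicate 1 led for the inhibitor and BAT replicate 2 for the lipase.

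Pde3b encodes the phosphodiesterase through which insulin lowers cyclic AMP in adipocytes. It was at 92.1, 126 and 65.9 TPM in BAT, 46.6, 55.5 and 44.7 TPM in EWAT, 123, 136 and 52.7 TPM in IWAT and 144, 18.2 and 19.9 TPM in RWAT. Aqp7 encodes the channel by which the glycerol of lipolysis leaves the cell, and it was at 72.1, 77.5 and 59.9 TPM in BAT, 26.4, 29.9 and 31.2 TPM in EWAT, 103, 94.2 and 51.0 TPM in IWAT and 100.1, 25.5 and 11.7 TPM in RWAT. EWAT was the tightest depot for both, at 49.0 ± 5.74 TPM for Pde3b and 29.1 ± 2.49 TPM for Aqp7 (SD, n = 3). Every EWAT library was below every BAT library for both genes and, for Aqp7, also below every IWAT library on either scale. Aqp7 had the lowest adjusted p of the 10 genes for any difference among depots (0.319) and for BAT against EWAT (0.123, log2 difference 1.87, SE 0.69, edgeR).

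Lpl, the lipase of the capillary wall, was at 1439, 2756 and 1245 TPM in BAT, 1335, 1336 and 1246 TPM in EWAT, 3135, 2444 and 1465 TPM in IWAT and 3772, 731 and 333 TPM in RWAT. The 11.3-fold range from RWAT replicate 3 to RWAT replicate 1 was the widest of the 10 genes and lay within 1 depot. EWAT held 1306 ± 51.6 TPM and RWAT 1612 ± 1881 TPM (SD, n = 3 each), so their means differed by less than the spread in RWAT. BAT was 0.49 log2 units above the white mean (SE 0.68, 95% interval -1.02 to 2.00, edgeR adjusted p = 0.664), and on leaving out 1 library this difference ran from 0.22 (without BAT replicate 2) to 1.099 (without RWAT replicate 1). Muscle is also known to make Lpl, and the 3 libraries with the most muscle marker RNA gave 1439 (BAT replicate 1), 2756 (BAT replicate 2) and 333 TPM (RWAT replicate 3) for Lpl. The part of muscle in these levels was not tested.

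Gpihbp1, the capillary protein that carries Lpl, was at 72.1, 56.0 and 85.1 TPM in BAT, 85.2, 42.2 and 71.6 TPM in EWAT, 91.2, 122 and 98.2 TPM in IWAT and 161, 189.7 and 39.3 TPM in RWAT. Angptl4, the secreted inhibitor of Lpl, was at 87.6, 112 and 154 TPM in BAT, 150.4, 134 and 189 TPM in EWAT, 179, 211 and 200.1 TPM in IWAT and 191, 283 and 155 TPM in RWAT. On the TPM scale the 3 BAT libraries were below the 3 IWAT libraries for both genes (4.13% of all genes tested), but on TMM-scaled CPM these groups overlapped. In the fit, BAT differed from the white mean by 0.18 log2 units for Gpihbp1 (SE 0.43, adjusted p = 0.803) and by -0.18 for Angptl4 (SE 0.21, adjusted p = 0.595, edgeR). With library sizes alone the direction of Gpihbp1 reversed (-0.27) and Angptl4 stood at -0.59, and with that scaling the median over all genes tested was -0.46 in place of -0.07. Angptl4 had the narrowest range of the 10 genes, 3.23-fold between BAT replicate 1 and RWAT replicate 2.

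No gene of the 10 passed edgeR's test at an adjusted p under 0.05 in the comparison of all 4 depots, for which 0.512% of all genes tested did. The same count of 0 was found for BAT against the white mean (0.0992% of all genes called) and for each of the 6 pairs of depots. In those pairs 0.783% of all genes were called for BAT against EWAT, 0.0104% for BAT against IWAT, 0.0574% for BAT against RWAT, 0.345% for EWAT against IWAT, 0.0418% for EWAT against RWAT and 0% for IWAT against RWAT. DESeq2 and limma-voom called none of the 10 for any difference among depots or for BAT against the white mean. At an unadjusted p under 0.05, 2 of the 10 passed in BAT against the white mean (18.1% of all genes), 6 in BAT against EWAT (27.7%) and 4 in EWAT against IWAT (16.2%). The other comparisons gave 0 of 10, beside 17.1% of all genes for the 4 depots, 3.85% for BAT against IWAT, 14.8% for BAT against RWAT, 9.04% for EWAT against RWAT and 4.42% for IWAT against RWAT. The intervals were wide: for Pnpla2 in BAT against IWAT the log2 difference was 0.44 with a 95% interval of -1.50 to 2.38, and its sign changed under at least 1 alternative (lowest value -0.02), so a missed threshold does not show equal levels.

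Of the 6 pairs of depots, BAT and EWAT had the largest median difference of the 10 genes, none of it called by edgeR. On TMM-scaled CPM, 8 of the 10 had all BAT libraries above all EWAT libraries (every gene but Gpihbp1 and Angptl4), beside 19.1% of all genes tested, and on TPM 6 of the 10 did, without Mgll and Lpl, beside 8.43% of all genes. The median log2 difference of the 10 was 1.74, beside -0.08 for all genes. All 10 were above 0, beside 45.6% of all genes. They ran from 2.29 for Pnpla2 to 0.19 for Angptl4, and the sign of the latter reversed with library sizes alone (-0.36). With that scaling the median of all genes was -0.60, and Pnpla2 stood at 1.67. In EWAT against IWAT the median of the 10 was -1.54, beside 0.04 for all genes, and all 10 were below 0, beside 47.3% of all genes. There, 3 genes (Pde3b, Aqp7 and Angptl4) had EWAT below IWAT without overlap on TMM-scaled CPM, beside 11.8% of all genes. On TPM these were 5 (Mgll, Abhd5, Aqp7, Lpl and Gpihbp1), beside 8.01%. The 11 adipocyte markers had a similar pattern, with 0 called in either comparison. In BAT against EWAT their median was 1.84, all 11 were above 0, and 8 had BAT above EWAT without overlap on TMM-scaled CPM. In EWAT against IWAT their median was -1.75, 0 of the 11 were above 0, and 5 had EWAT below IWAT without overlap on that scale. Both comparisons share the EWAT libraries.

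DESeq2 called Pnpla2, G0s2 and Aqp7 higher in BAT than in EWAT, with adjusted p = 0.0421, 0.0496 and 0.0399, beside 16.8% of all genes. Without RWAT replicate 1, edgeR called Aqp7 alone (log2 difference 1.88, adjusted p = 0.0474), beside 6.86% of all genes. Without the library labelled BAT replicate 2, the difference was 2.17 for Pnpla2 (adjusted p = 0.238) and 2.00 for Lipe (adjusted p = 0.259), close to the values with all libraries.

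**Figure D2:**
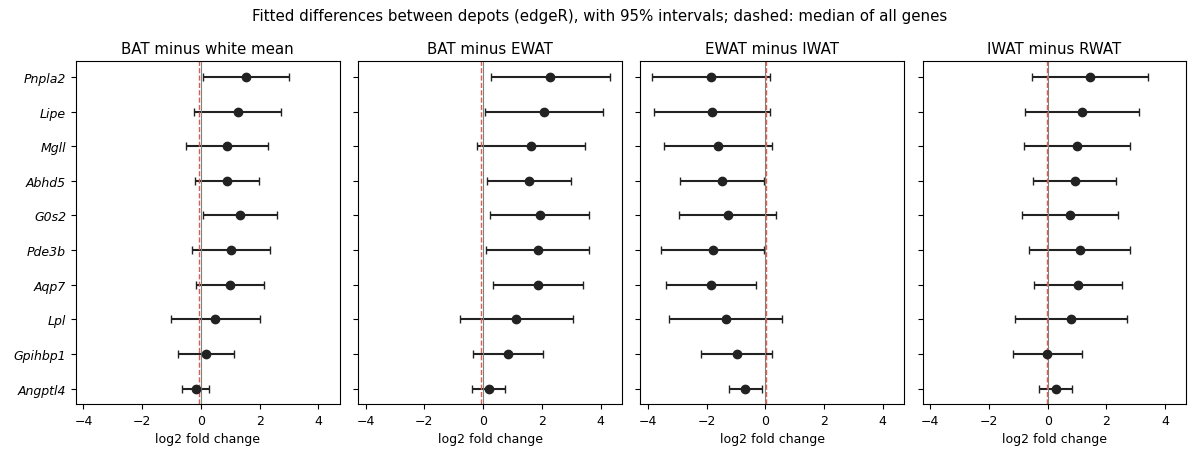
Fitted log2 difference between depots (horizontal axes, edgeR) for each gene, with its 95% interval, in 4 comparisons; the dashed line is the median of all genes tested. In BAT minus EWAT all 10 points are above 0, from 0.19 (Angptl4) to 2.29 (Pnpla2), and in EWAT minus IWAT all 10 are below 0.

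Ratios of 2 genes in the same library remove any factor common to both. Lipe per Pnpla2, in TPM, was 0.567, 0.509 and 0.520 in BAT, 0.609, 0.641 and 0.608 in EWAT, 0.600, 0.560 and 0.669 in IWAT and 0.690, 0.822 and 0.657 in RWAT. BAT was below EWAT and RWAT without overlap and touched IWAT. Mgll per Pnpla2 had the same depot order by mean TPM ratio, at 0.233 ± 0.0365 in BAT, 0.333 ± 0.0577 in IWAT, 0.393 ± 0.0726 in EWAT and 0.506 ± 0.202 in RWAT (SD, n = 3 each). By mean log2 count ratio the order differed. For Lipe, EWAT (0.109) was just below IWAT (0.121), while for Mgll, IWAT (-0.539) was below EWAT (-0.286). Both ratios differed among depots in an exact permutation test of log2 count ratios over all 369600 assignments, with p = 0.00604 for Lipe and 0.00727 for Mgll, each 0.0255 after adjustment over 7 ratios. By mean, Pnpla2 was highest relative to Lipe and Mgll in BAT; single pairs of depots were not tested. Neither call held without the library labelled BAT replicate 2 (adjusted p = 0.104 for both), nor without BAT replicate 3 (0.103), EWAT replicate 1 (0.0632), IWAT replicate 1 (0.0595) or RWAT replicate 2 (0.0593), and that of Mgll also not without IWAT replicate 3 (0.0514). Over 15 alternatives the adjusted p ran from 0.0173 to 0.104 for Lipe and from 0.0209 to 0.104 for Mgll.

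The activator and the inhibitor were set against their lipase in the same way. Abhd5 per Pnpla2 was 0.145 ± 0.0188 in BAT, 0.194 ± 0.0576 in IWAT, 0.248 ± 0.0378 in EWAT and 0.328 ± 0.127 in RWAT (SD, n = 3 each; exact permutation p = 0.0345, adjusted 0.0805). Without RWAT replicate 1, at 0.186 the lowest of its depot, that adjusted p was 0.0209. Without any other single library it was 0.0633 to 0.195, so the ratio is not counted as a called difference. G0s2 per Pnpla2 was 0.267, 0.103 and 0.231 in BAT and 0.232, 0.488 and 0.310 in RWAT, and the depots overlapped (exact permutation p = 0.234, adjusted 0.327). The lowest ratio of inhibitor to lipase was in the library labelled BAT replicate 2 and the highest in RWAT replicate 2.

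The transcript of the uptake lipase was set against that of the first lipase of release as Lpl per Pnpla2; no fatty acid flux was measured. The ratio was 1.22, 1.62 and 1.58 in BAT and between 1.73 and 4.47 in the 9 white libraries, without overlap. The exact permutation test over the 4 depots gave p = 0.0547, adjusted 0.0958. Without RWAT replicate 3, the library rich in muscle markers, the adjusted p of that test was 0.0495. Without any other single library it was 0.0761 to 0.265. Angptl4 per Lpl was 0.0505 in RWAT replicate 1 but 0.388 and 0.467 in RWAT replicates 2 and 3, the highest values of all 12 libraries (exact permutation p = 0.328, adjusted 0.328). Without RWAT replicate 1 the adjusted p of that test was 0.0209, and without any other single library it was 0.262 to 0.738. Gpihbp1 per Lpl was likewise 0.0426 in RWAT replicate 1 and 0.259 and 0.118 in the other RWAT libraries (exact permutation p = 0.293, adjusted 0.328). In the 9 libraries of the other depots Angptl4 per Lpl stayed between 0.0406 and 0.152.

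**Figure D3:**
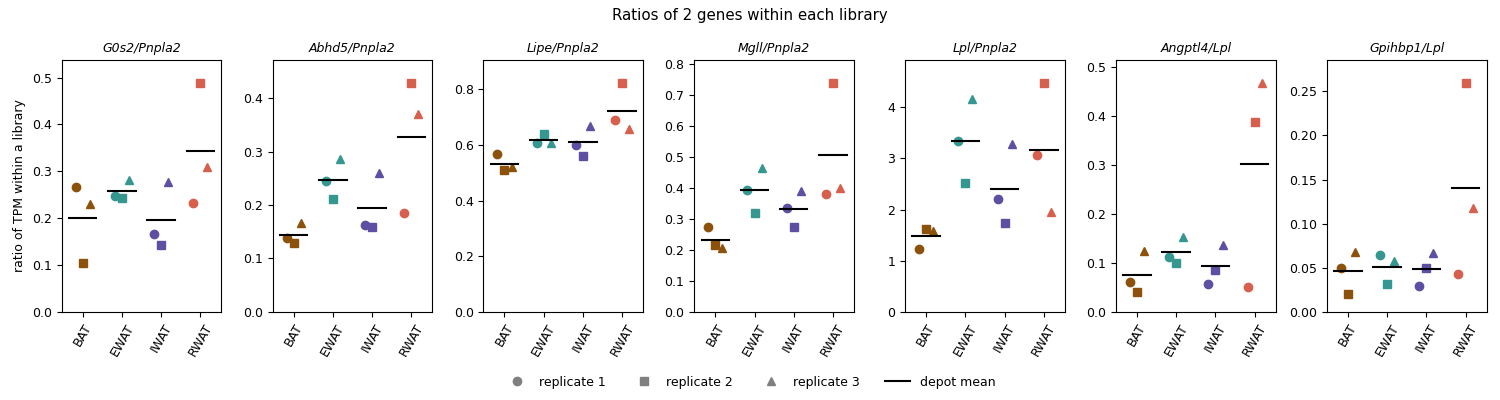
The 7 ratios of TPM within a library (vertical axes start at 0), by depot; points are libraries, shapes the replicate number and bars the depot mean. Lipe per Pnpla2 has its lowest mean in BAT (0.532) and its highest in RWAT (0.723), and for Angptl4 per Lpl the RWAT libraries split into 0.0505 against 0.388 and 0.467.

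The 8 genes other than Gpihbp1 and Angptl4 followed each other across libraries. Over the 12 libraries their 28 pairs had Pearson's r of log2 CPM from 0.881 to 0.994, and from 0.872 to 0.996 after removal of depot means. These are descriptions, since the points share depots and scaling. Gpihbp1 and Angptl4 had r = 0.820 with each other. The gene most like Pnpla2 among 9876 genes of mean log2 CPM of at least 3 was Lipe (r = 0.994). Lipe was most like Adig (0.996) and Plin1 (0.996), the perilipin that coats the adipocyte droplet, and Pnpla2 was next to Adig (0.992) and Rbpms2 (0.992).

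Abhd5 was most like Fitm2 (r = 0.998), which takes part in droplet formation, and then Slc25a16 (0.997). Aqp7 was most like Pparg (0.996), the master receptor of adipocyte formation, and Fabp4 (0.990), a fatty acid carrier. Pde3b was most like Lgals12 (0.994), a galectin of adipocytes, Mgll like Aplp2 (0.993), G0s2 like Tmx2 (0.983) and Lpl like Tmcc3 (0.978). Gpihbp1 was most like Adgrf5 (0.971), an adhesion receptor of endothelium, and Cyp4b1 (0.956). Angptl4 was most like Tm9sf2 (0.959) and Dnajc3 (0.944). All are over 12 libraries.

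The mean log2 CPM of the 11 adipocyte markers ran from 7.06 (RWAT replicate 3) to 10.6 (IWAT replicate 1), with 5 libraries at 10.1 or above and 7 at 8.95 or below. The 8 genes had r of 0.945 (Lpl) to 0.997 (Abhd5) with that mean over the 12 libraries, against 0.580 for Gpihbp1 and 0.424 for Angptl4. Gpihbp1 (r = 0.793, Spearman's rho 0.951) and Angptl4 (r = 0.768, rho 0.888) instead followed the mean of the 11 endothelial markers, with which the other 8 had r of -0.02 (Pnpla2) to 0.24 (Aqp7) and rho of 0.196 to 0.517 for the same 2 genes. After removal of depot means, r with the endothelial mean was 0.871 for Gpihbp1, 0.833 for Angptl4 and 0.172 to 0.465 for the other 8. The summed endothelial level was 184 to 399 TPM in BAT, 382 to 527 TPM in EWAT, 259 to 553 TPM in IWAT and 418 to 919.6 TPM in RWAT. Its highest value was in RWAT replicate 2, which on the TPM scale was also the library of highest Gpihbp1 and Angptl4. On TMM-scaled CPM, Gpihbp1 was highest in RWAT replicate 1 (77.1, against 69.3 in RWAT replicate 2). On that scale Angptl4 was highest in IWAT replicate 1 (324, against 285 in RWAT replicate 2). All 11 endothelial markers were detected in every library.

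Macrophage markers ran the other way across libraries. Their 11 genes summed to 404, 913 and 4668 TPM in BAT, 5143, 7733 and 8347 TPM in EWAT, 934, 2143 and 6397 TPM in IWAT and 1492, 5649.6 and 5098 TPM in RWAT. The 8 genes had r of -0.88 (Abhd5) to -0.74 (Lpl) with their mean, over the same 12 libraries. The adipocyte sums in the same order of depots were 15478, 28028 and 13612 TPM, then 7255, 9893 and 6105 TPM, then 27775, 31042 and 12864 TPM, then 26834, 6531 and 4757 TPM. EWAT replicate 3 and RWAT replicates 2 and 3, the lowest libraries for Pnpla2 and Lipe, were also the lowest for adipocyte markers. The part of tissue composition in the depot differences was not tested.

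**Figure D4:**
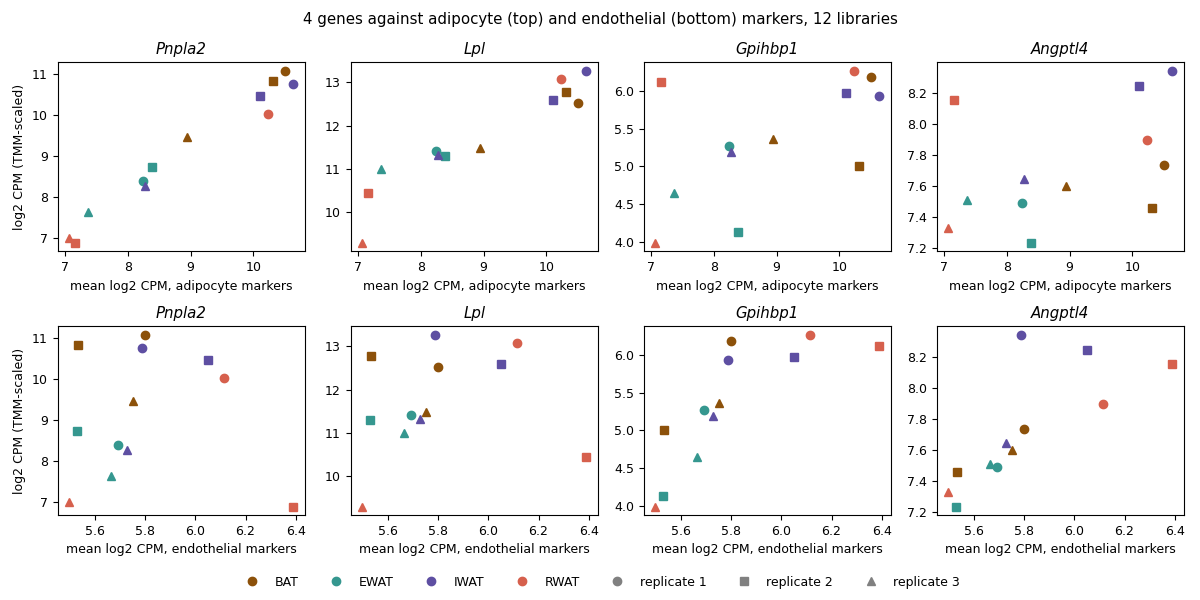
log2 CPM of Pnpla2, Lpl, Gpihbp1 and Angptl4 (vertical axes) against the mean log2 CPM of 11 adipocyte markers (top) or 11 endothelial markers (bottom); each point is 1 of 12 libraries, coloured by depot. Pnpla2 and Lpl increase along the adipocyte axis (r = 0.985 and 0.945), and Gpihbp1 and Angptl4 along the endothelial axis (r = 0.793 and 0.768).

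Levels per Adipoq, the adiponectin gene of adipocytes, were chosen after the values were seen and carry no test. Abhd5 per Adipoq had the narrowest range of these ratios, from 0.103 to 0.165 or 1.60-fold, against 3.68-fold for its level. Pnpla2 per Adipoq was 1.13, 0.795 and 0.716 in BAT, 0.553, 0.529 and 0.564 in EWAT, 0.754, 0.644 and 0.472 in IWAT and 0.565, 0.384 and 0.377 in RWAT. By this ratio the EWAT libraries lay inside the IWAT range, BAT replicate 1 was highest and RWAT replicates 2 and 3 were lowest. Lpl per Adipoq ran from 0.739 in RWAT replicate 3 to 2.35 in EWAT replicate 3, and EWAT (1.85, 1.33 and 2.35) lay above BAT replicates 2 and 3 on this scale. Gpihbp1 per Pecam1, an endothelial gene, was 2.02, 1.37 and 0.865 in BAT and 0.846, 0.489 and 0.587 in EWAT, 1.95, 1.55 and 0.787 in IWAT and 1.71, 0.788 and 0.435 in RWAT. Its range was 4.64-fold, against 4.83-fold for the level of Gpihbp1. The range of Angptl4 per Pecam1 was 3.25-fold, against 3.23-fold for the level of Angptl4.

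Other genes of the pathways were taken from 3 lists. Of 19 other lipolysis and droplet genes, 18 were tested and 0 were called in BAT against the white mean by edgeR, with 9 at an unadjusted p under 0.05 (18.1% of all genes) and a median log2 difference of 0.89, beside -0.07 for all genes. Plin5, which tethers droplets to mitochondria in oxidative tissue, was at 61.3, 11.4 and 21.7 TPM in BAT, 0.810 to 2.31 TPM in EWAT, 4.36 to 21.8 TPM in IWAT and 1.74 to 12.3 TPM in RWAT. On TPM, BAT lay above EWAT but overlapped IWAT and RWAT, and the log2 difference from the white mean was 3.48 (SE 0.79, edgeR adjusted p = 0.101). Aqp9, another glycerol channel, went the opposite way, at 10.6, 9.26 and 3.89 TPM in EWAT and at most 1.62 TPM elsewhere, with edgeR adjusted p = 0.0585 for any difference among depots. Of these 18 genes, 9 had BAT above EWAT without overlap on TMM-scaled CPM and 3 had BAT below, beside 19.1% and 17.8% of all genes.

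Of 14 other genes around Lpl, 13 were tested, and 0 were called in BAT against the white mean, with 4 at an unadjusted p under 0.05 (18.1% of all genes) and a median of 0.16, beside -0.07 for all genes. In BAT against EWAT 1 of the 13 was called, beside 0.783% of all genes: Pcsk6, a proprotein convertase of the family that cleaves Lpl. It was at 30.1, 45.5 and 32.9 TPM in BAT, 3.33, 3.93 and 2.24 TPM in EWAT, 23.3, 36.4 and 11.3 TPM in IWAT and 24.4, 7.17 and 20.9 TPM in RWAT. Every BAT library was above every EWAT library, and the log2 difference was 4.06 (SE 0.67, edgeR adjusted p = 0.0361). Angptl8, an insulin-induced secreted protein, was at 11.9 to 21.8 TPM in BAT, 1.60 to 2.27 TPM in EWAT, 6.54 to 13.3 TPM in IWAT and 2.53 to 17.3 TPM in RWAT (edgeR adjusted p = 0.152 for any difference among depots).

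Of 27 genes of cyclic AMP and insulin control, all were tested and 0 were called in BAT against the white mean, with 11 at an unadjusted p under 0.05 (18.1% of all genes) and a median of 0.55, beside -0.07 for all genes. In BAT against EWAT 16 of the 27 had BAT above EWAT without overlap and 2 below, beside 19.1% and 17.8% of all genes. Hcar2, the receptor through which nicotinic acid slows lipolysis, was at 18.9 ± 9.71 TPM in IWAT and 5.29 ± 1.60 TPM in EWAT (SD, n = 3; edgeR adjusted p = 0.0896 for any difference). Pde4a, a cyclic AMP phosphodiesterase, was 1.01 log2 units higher in BAT than in the white mean (SE 0.21, edgeR adjusted p = 0.0920), although its TPM overlapped between BAT (4.85 to 6.47) and EWAT (4.97 to 6.39). Adrb3, the beta-adrenergic receptor of adipocytes, chosen after its values were seen, was at 64.5, 162 and 40.0 TPM in BAT, 27.0, 28.2 and 20.6 TPM in EWAT, 66.7, 98.5 and 27.5 TPM in IWAT and 125, 8.61 and 10.8 TPM in RWAT.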

How the data were processed

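RNA was measured in 12 libraries of denervated mouse fat, 4 depots of 3. Per the labels' protocols, ribosomal RNA was removed from total RNA and single-end 75-base reads were sequenced. Per the submitters' processing notes, Trimmomatic 0.36, RSEM 1.3.0, DESeq2 1.10.1 and build GRCm38.p4 were used; the annotation and strand setting were not given in the sources used here. Deposited for each gene are RSEM estimated counts (not normalised), the authors' TPM and a posterior standard deviation of the count, a signal column of the deposited files used only to give precision.

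Estimated counts were rounded, filtered with filterByExpr (19154 of 47729 genes kept) and scaled by TMM. edgeR 4.0.16 (R 4.3.3) fitted 1 quasi-likelihood model to all 12 libraries with a coefficient per depot. Adjusted p-values are Benjamini-Hochberg over all genes tested, with a threshold of 0.05. The comparisons were any difference among depots, BAT against the white mean, and 6 pairs. Levels are the authors' TPM. The 7 ratios were tested as log2 count ratios by an exact permutation test, whose smallest possible p is 6.49e-05. Alternatives were DESeq2 1.42.0, limma 3.58.1 (voom, and log2(TPM + 1)), other scalings and filters, the replicate block, and leaving out each library. The fit was also run on simulated counts, drawn independently for each library and scaled by library size alone. That run does not cover libraries that differ in composition or are related to each other.

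All 10 genes are reported. From each pathway list the text names called genes or, with none called in BAT against the white mean, the 2 with the lowest p among depots. For each of the 10 it names up to 3 genes of highest correlation; 1 of these is not reported here. The 10 genes and the lists were chosen with earlier results of these data known. Libraries of a depot differed well beyond sampling noise (chi-square per degree of freedom of at least 52.8 in every pair), so none was counted as a repeat of another. Intervals are for a fitted difference between depots, given the spread between libraries, and are not ranges of single libraries.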

Additional observations from a re-analysis of the deposited data

How the results depend on the processing

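Among 20 alternatives per comparison, genes of the 10 were called only in BAT against EWAT: 3 with DESeq2, 5 with the replicate block (Pnpla2, Lipe, Abhd5, G0s2 and Aqp7, beside 18.5% of all genes) and 1 without RWAT replicate 1, against 0 in edgeR with all libraries. Of the 70 differences (10 genes in BAT against the white mean and 6 pairs), 22 changed sign under at least 1 alternative: 9 in BAT against IWAT (all but Angptl4), 8 in EWAT against RWAT (all but Gpihbp1 and Angptl4), 2 in IWAT against RWAT (Gpihbp1 and Angptl4), 1 each in BAT against RWAT (Gpihbp1), BAT against the white mean and BAT against EWAT, and 0 in EWAT against IWAT. In EWAT against RWAT, Pnpla2 ran from -0.87 to 1.37, Lipe from -1.11 to 1.15 and Lpl from -1.05 to 1.27. In the comparisons on which the values above rest, the reversed directions were those of Gpihbp1 in BAT against the white mean (-0.34 with limma on log2 TPM, -0.27 with library sizes alone, -0.22 without BAT replicate 1, with 0.41 the highest value on leaving out 1 library) and of Angptl4 in BAT against EWAT (-0.44 with limma on log2 TPM, -0.36 with library sizes alone). With the replicate block the adjusted p was 0.0648 for Lipe per Pnpla2 and 0.0547 for Mgll per Pnpla2. Leaving out 1 library at a time gave 0.0173 to 0.104 for Lipe per Pnpla2, 0.0209 to 0.104 for Mgll per Pnpla2, 0.0209 to 0.195 for Abhd5 per Pnpla2, 0.0209 to 0.738 for Angptl4 per Lpl and 0.0495 to 0.265 for Lpl per Pnpla2. The causes were not tested. Of 18 pairs of same-numbered libraries from different depots, 10 had deviations correlated above 0.1 (range -0.35 to 0.68). For 7 of 12 libraries the best correlation was with one of their own number. The labels do not state whether one mouse gave several depots, and these values do not decide whether same-numbered libraries are paired. The main fit therefore had no replicate term, and a shared factor of the replicate number was not excluded.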
